A study of Macaca mulatta with 136 samples.

Results

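Potassium channel genes were taken as every gene whose symbol in the deposited files starts with KCN, with 1 entry per Ensembl gene identifier. Of 85 such entries, 84 genes among 19422 genes in all were used, and 1 entry lay outside the set by its definition. The 84 genes fall into 16 pore-forming Kv1 to Kv4 genes (KCNA, KCNB, KCNC and KCND), 9 silent Kv subunit genes (KCNF, KCNG, KCNS and KCNV), 5 KCNQ genes, 8 KCNH genes, 9 auxiliary subunit genes (KCNAB, KCNE and KCNIP), 12 inward rectifier genes (KCNJ), 12 two-pore leak channel genes (KCNK), a group of 12 for calcium-activated or sodium-activated channels and their beta subunits (KCNM, KCNN and KCNT), and KCNRG, a regulator of channel assembly. KCNU1 was placed in that group of 12 as well.

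RNA was sequenced from the postmortem eyes of 2 adult rhesus macaques (Macaca mulatta), animals with no stated treatment or genetic change. From each of the 4 eyes, punches of 2 mm were taken at the fovea/macula (here "fovea"), the perimacula, a nasal site and the periphery, and each punch was split into neural retina and RPE/choroid, the retinal pigment epithelium with the choroidal vessels behind it. The result was 8 groups of 4 eyes, 32 libraries in all. The design has limits, since the eyes are fellow eyes of 2 animals, so that p-values measure the spread between these eyes, and since in bulk tissue fewer cells of a type and less RNA per cell cannot be told apart.

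A potassium channel lets potassium ions leave or enter the cell and so sets the resting voltage and the shape and rate of electrical signals. Kv channels open on depolarisation, KCNQ and KCNH channels give slow voltage-gated currents, inward rectifiers hold the membrane near rest, two-pore channels leak, and calcium-activated channels couple calcium to repolarisation. In photoreceptors the current that flows in the dark leaves through Kv channels of the inner segment, ganglion cell axons repolarise through Kv1 and Kv3 channels, and the pigment epithelium moves potassium between the retina and the choroid.

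Levels are given as TMM-normalised CPM, that is, counts scaled to a common library total after edgeR's trimmed-mean correction, and the 4 eyes are always listed as right and left eye of the first animal and then right and left eye of the second. Library totals ran from 42448891 to 78574034 estimated counts. CPM were compared within a gene and not between genes, because no transcript lengths were used. A gene was called where the adjusted p of edgeR's quasi-likelihood test, with Benjamini-Hochberg adjustment over all genes tested, was under 0.05. Log2 fold changes carry their standard error (SE). Since peripheral libraries ran on 1 flow cell and all others on 2 different ones, a difference from the periphery and one between flow cells cannot be told apart. Fovea, perimacula and nasal libraries shared flow cells.

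The tissue labels were checked against cell type markers. Summed over 6 markers of the pigment epithelium, RPE/choroid libraries held 2916 to 19280 CPM and neural retina libraries 227 to 1498 CPM, and summed over 9 rod markers, neural retina held 4007 to 27960 CPM and RPE/choroid 50.1 to 924.5 CPM, so that neither pair of ranges overlapped. Some RPE/choroid libraries stood apart. Summed over 4 Schwann cell markers, 4 of them lay at 7294 and 1769 CPM (perimacula, the first and the fourth eye) and at 3996 and 11860 CPM (periphery, first and second eye), against 142 to 885 CPM in the other 12. Summed over the 9 rod markers, the third fovea eye (538 CPM) and the first and the fourth periphery eyes (924.5 and 690.2 CPM) were above the other 13 RPE/choroid libraries. Counts that rest on these libraries were also made without them.

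The set was mostly detected in both tissues. A mean of at least 1 CPM was reached by 61 of the 84 genes in neural retina, by 52 in RPE/choroid, by 44 in both and by all but 15 in at least 1 tissue. KCNA10 and KCNK16 had 0 counts in all 32 libraries. They and KCNU1, KCNK15 and KCNK17, also near 0, passed the filter on low counts in no comparison, which left 79 genes that could be tested between the tissues, 76 between fovea and periphery of the retina and 71 between fovea and periphery of RPE/choroid.

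Between the tissues the set leaned to the retina. At the fovea, 68 of 79 tested genes differed between neural retina and RPE/choroid, 46 higher in retina and 22 higher in RPE/choroid, where 75.5% of all genes tested differed, 37% and 38.4% by direction. The median log2 fold change was 1.66 over the potassium channel genes and 0.00 over all genes tested. At the perimacula 66 of 79 genes differed, 46 and 20 by direction, against 76.7% of all genes (37.7% and 39%). At the nasal location 65 differed, 47 and 18, against 76.2% (37.6% and 38.6%), and at the periphery 59 differed, 40 and 19, against 75.7% (37.8% and 37.9%). At all 4 locations, 34 of the 79 genes were higher in retina, against 26.8% of all genes, and 17 were higher in RPE/choroid, against 29.1%. For 31 of the 84 genes every retina library lay above every RPE/choroid library, against 13.4% of all 19422 genes, and for 12 the reverse held, against 16.2%. A demand for at least 10 counts in every library left 40 calls at the fovea. That demand by its nature drops every gene near 0 in either tissue, such as KCNV1. The lower count therefore reflects fewer genes tested and cannot show whether the dropped calls hold.

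By role, the lean to the retina was largest in number among the voltage-gated pore genes. At the fovea 13 of 15 tested Kv1 to Kv4 genes were higher in retina, 1 was higher in RPE/choroid and 1 did not pass the test. Of the 12 inward rectifier genes 8 were higher in retina and 4 in RPE/choroid, and of 9 two-pore genes 6 and 2. Of the 5 KCNQ genes 1 was higher in retina, 3 were higher in RPE/choroid, KCNQ1 and KCNQ5 among them, and KCNQ3 was not called. The calcium-activated and sodium-activated group was split, 4 higher in retina and 5 in RPE/choroid of 11 tested, as were the auxiliary genes with 4 and 4 of 9.

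**Figure D1:**
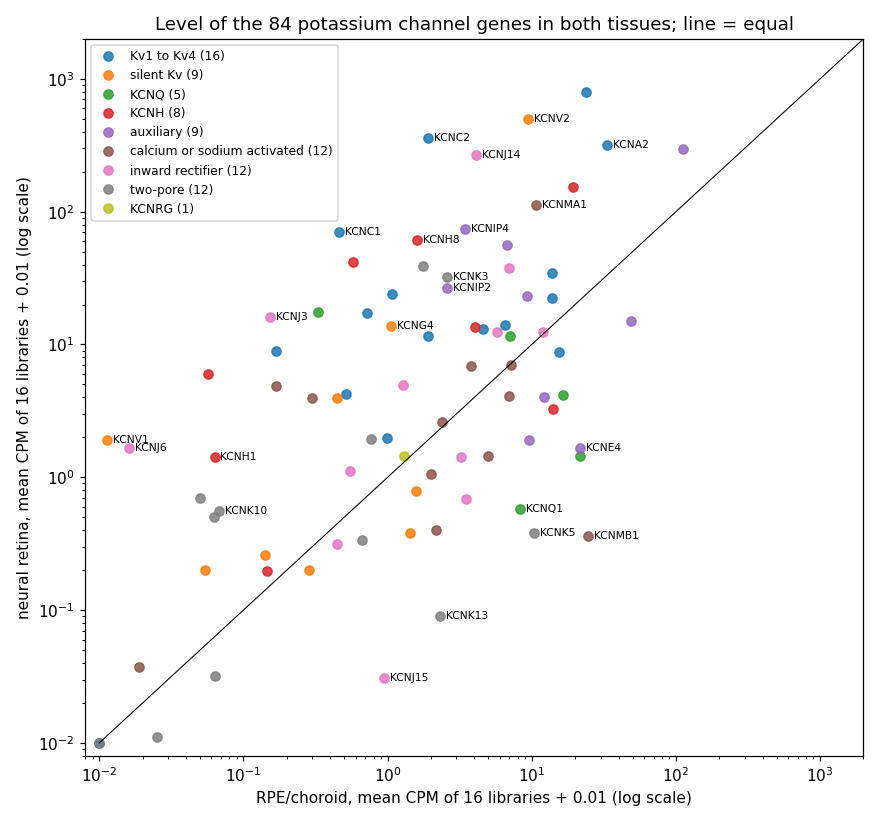
Mean TMM-normalised CPM of each of the 84 genes over the 16 neural retina libraries (vertical) and the 16 RPE/choroid libraries (horizontal), both with 0.01 CPM added and on log scales, coloured by gene group, with the line of equal levels. Most points lie above the line, among them KCNV2, KCNC2 and KCNJ14, whereas KCNMB1, KCNK5, KCNQ1 and KCNE4 lie far below it.

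The genes with the widest gap in favour of the retina were KCNV1, KCNJ6, KCNC1, KCNC2 and KCNJ3. KCNV1, a silent Kv subunit, had 4.42, 4.27, 3.70 and 4.57 CPM in the foveal retina and 0 counts in the 12 RPE/choroid libraries of the fovea, perimacula and periphery. Against a floor of 3 counts over the 4 libraries of a group, its level was at least 284-fold higher in retina at the fovea, at least 163-fold higher at the perimacula and at least 23.9-fold higher at the periphery. KCNJ3, a subunit of the G-protein-gated inward rectifier that many neurons use for inhibition, was at 22.1, 21.1, 22.8 and 21.8 CPM in the foveal retina and at 0.0895, 0, 0.110 and 0 CPM in the foveal RPE/choroid, with a log2 fold change of 8.65 (SE 0.70, edgeR adjusted p = 1.28e-11). KCNJ6, another subunit of that channel, reached 1.88 to 2.35 CPM in the foveal retina, and 4 of the 16 RPE/choroid libraries held any count of it. KCNC1 was at 109.7 to 124.5 CPM in the foveal retina and 0.334 to 1.39 CPM in the foveal RPE/choroid. All 16 retina libraries lay above all 16 RPE/choroid libraries for each of these genes.

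The genes with the widest gap in favour of RPE/choroid were KCNMB1, KCNJ15, KCNK5, KCNK13 and KCNQ1. KCNMB1, the beta subunit that tunes the large-conductance calcium-activated channel of smooth muscle, was at 41.2, 50.3, 37.4 and 33.7 CPM in the foveal RPE/choroid and at 0.369, 0.261, 0.116 and 0.382 CPM in the foveal retina, a log2 fold change of -7.17 (SE 0.34, edgeR adjusted p = 2.16e-16). KCNK5, an acid-sensitive and volume-sensitive leak channel of epithelia, was at 4.74, 4.70, 10.4 and 10.7 CPM against 0.0410, 0.0349, 0.0495 and 0.0166 CPM (log2 fold change -7.66, SE 0.52, edgeR adjusted p = 3.41e-13). KCNQ1, the KCNQ channel of many epithelia, was at 5.78 to 9.33 CPM against 0.0523 to 0.545 CPM (log2 fold change -4.86, SE 0.34, edgeR adjusted p = 7.62e-13). KCNK13, a leak channel known from microglia, was at 0.616 to 2.32 CPM against 0 to 0.116 CPM, and KCNJ15, an inward rectifier of transporting epithelia, at 1.06 to 1.24 CPM against 0 to 0.0166 CPM.

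In the neural retina, most of the set changed between the fovea and the periphery. Of 76 tested genes 51 differed, 36 higher at the fovea and 15 higher at the periphery, whereas 67% of all genes tested differed, 31% higher at the fovea and 36% higher at the periphery. The share of the set that differed (67.1%) was close to that of all genes, and more of the set than of all genes was higher at the fovea. The median log2 fold change was 0.47 over the set and -0.06 over all genes, and the median absolute one 0.90 and 0.58. Against the perimacula 30 of 76 differed, 17 higher at the fovea and 13 higher at the perimacula, with 35.2% of all genes (19% and 16.2%). In a fit without the first eye 17 genes of the set were called. Against the nasal location 43 of 77 differed, 26 and 17 by direction, with 52.2% of all genes (25.1% and 27.2%). These 3 comparisons share the foveal libraries.

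Levels of several cell type markers in the retina moved with these locations. Over 9 of 9 ganglion cell markers, none of them at 0, the summed level was 9375 to 11230 CPM at the fovea, 2857 to 6256 at the perimacula, 2049 to 2319 at the nasal location and 511.6 to 1114 at the periphery. Over 9 of 9 rod markers, none at 0, it was 4007 to 4617 CPM at the fovea, 10650 to 16560, 15100 to 17490 and 23900 to 27960 at the periphery. Over 8 of 8 cone markers it was 2481 to 3218 CPM at the fovea and 1659 to 1755 at the periphery, and over 6 of 6 bipolar cell markers 707 to 852 and 683 to 1113. Mueller glia markers (5 entries for a list of 4) were at 1242 to 1374 CPM at the fovea and 2650 to 4001 at the periphery. The same sum was at 1367 to 2308 CPM in the foveal RPE/choroid and 1322 to 2523 in the peripheral one. It therefore does not separate these glia from RPE/choroid. Endothelial markers (6 of 6) were at 264 to 318 CPM at the fovea of the retina and 540.5 to 649 at its periphery. Pigment epithelium markers (6 of 7 listed) in the same retina libraries were at 227 to 330 CPM at the fovea and 739 to 1498 CPM at the periphery. What part cell composition or pigment epithelium had in the results below was not tested.

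**Figure D2:**
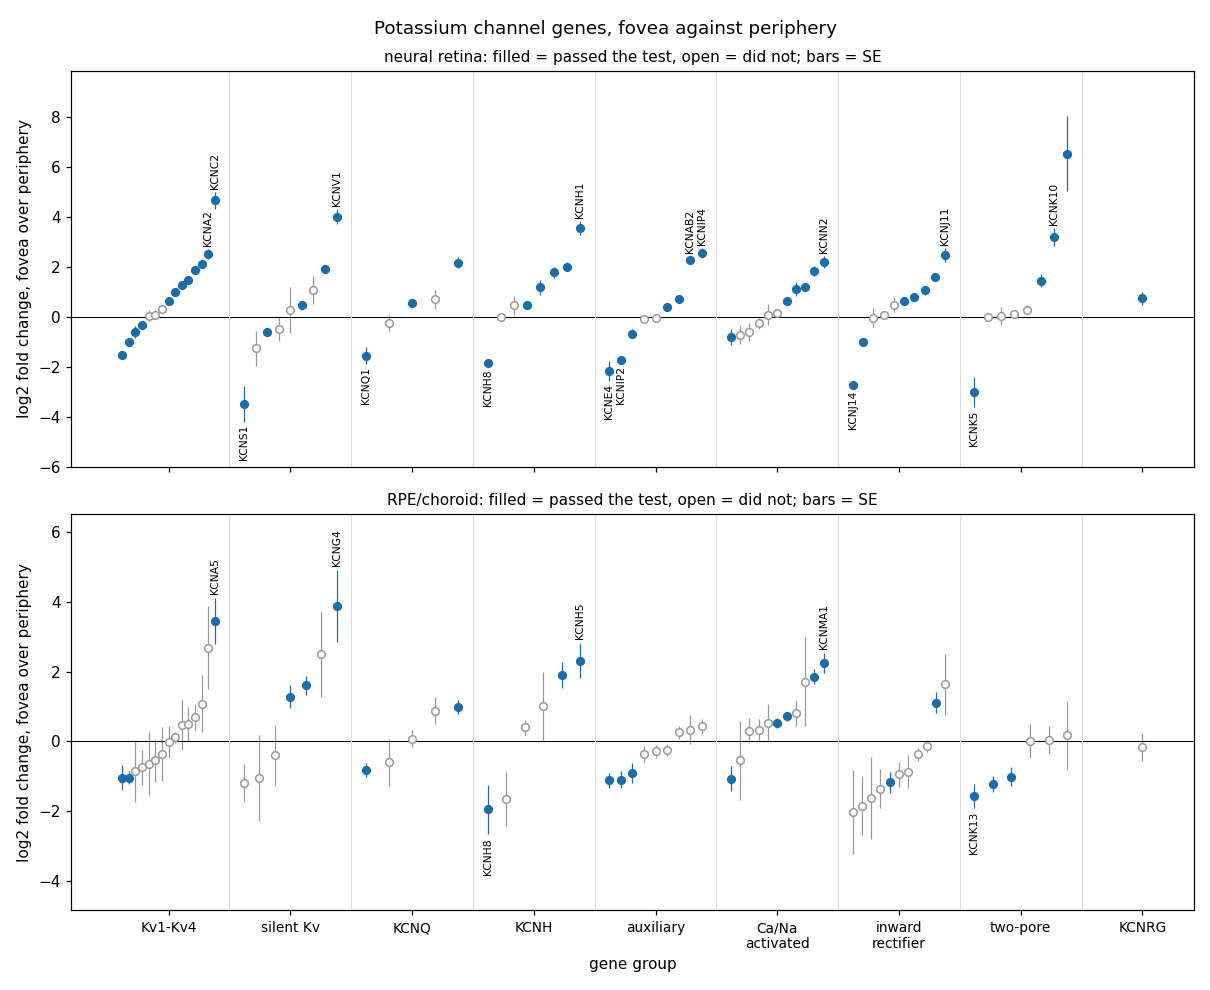
Log2 fold change of fovea over periphery for each tested gene, in neural retina (upper, 76 genes) and in RPE/choroid (lower, 71 genes), by gene group, with SE bars. Filled points passed the test and open points did not. In the retina 36 filled points lie above 0 and 15 below it, in RPE/choroid 12 and 12.

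Of 15 tested Kv1 to Kv4 genes, 8 were higher at the fovea of the retina, 4 were higher at the periphery and 3 were not called. KCNC2, a Kv3 pore subunit of fast-spiking neurons, was at 1032, 834, 918 and 908 CPM at the fovea and at 47.4, 25.3, 46.7 and 32.7 CPM at the periphery. Every foveal eye was above every perimacular eye (296, 231.5, 190.6 and 528.5 CPM), and these were above every nasal eye (151, 130.5, 180.3 and 164.7 CPM). The log2 fold change of fovea over periphery was 4.66 (SE 0.33, edgeR adjusted p = 2.82e-07), over the nasal location 2.61 (SE 0.27, edgeR adjusted p = 2.04e-06) and over the perimacula 1.63 (SE 0.29, edgeR adjusted p = 0.00139). KCNC1, the Kv3 subunit that often joins it, went from 115 ± 6.83 CPM (SD, n = 4) at the fovea through 74.9 ± 11.2 and 58.2 ± 5.24 to 32.6 ± 6.27 at the periphery. For KCNC1 all 3 comparisons with the fovea were called, with a log2 fold change against the periphery of 1.88 (SE 0.12).

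KCNA2, a Kv1 channel kept beside the nodes of myelinated axons and in unmyelinated ones, was at 696, 608, 638 and 644 CPM at the fovea and at 119.7, 85.3, 151 and 113 CPM at the periphery of the retina. Its log2 fold change was 2.53 (SE 0.20, edgeR adjusted p = 5.43e-07), 1.73 against the nasal location and 1.14 against the perimacula, all 3 called. KCNA1, its usual partner, had another order. It was highest at the perimacula (59.4, 50.7, 44.0 and 64.3 CPM), next at the fovea (34.2, 29.1, 37.3 and 41.3 CPM) and lowest at the periphery (22.1, 15.2, 21.2 and 15.2 CPM), with log2 fold changes of fovea over perimacula of -0.57 (SE 0.16, edgeR adjusted p = 0.0164) and of fovea over periphery of 0.99 (SE 0.16, edgeR adjusted p = 0.00019). At the nasal location KCNA1 was at 26.9 to 32.5 CPM, which did not pass the test against the fovea.

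The silent subunit KCNV2, which forms the photoreceptor channel together with another Kv subunit, ran the other way. It was at 281, 374, 348 and 358 CPM at the fovea and at 516, 437.5, 528 and 656 CPM at the periphery. KCNV2 was called against the periphery (log2 fold change -0.60, SE 0.14, edgeR adjusted p = 0.00313), the perimacula (-0.47) and the nasal location (-0.81). The ranges of fovea and periphery did not overlap.

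**Figure D3:**
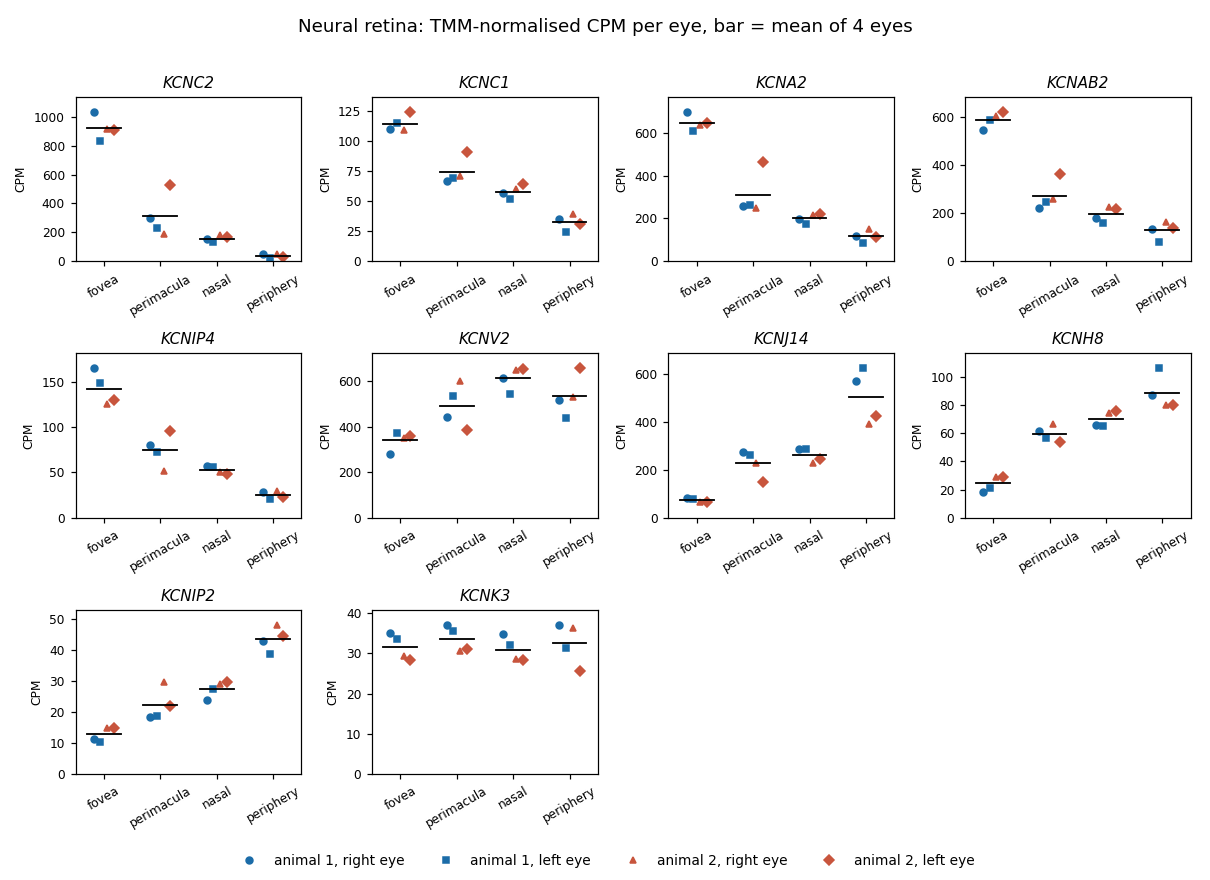
TMM-normalised CPM in neural retina for 10 genes at 4 locations, with a point per eye (colour for animal, shape for eye), a bar at the mean of 4 eyes and each vertical axis starting at 0. KCNC2, KCNC1, KCNA2, KCNAB2 and KCNIP4 are highest at the fovea, KCNV2, KCNJ14, KCNH8 and KCNIP2 are lowest there, and the locations overlap for KCNK3.

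Of the 9 silent subunits, which give no current alone, 3 were higher at the fovea of the retina, 2 (KCNV2 and KCNS1) were higher at the periphery and 4 were not called. KCNV1 was at 3.70 to 4.57 CPM at the fovea, 1.58 to 2.67 at the perimacula, 0.830 to 1.41 at the nasal location and 0.116 to 0.356 at the periphery, with no overlap between any pair of neighbours in that order. Its log2 fold change of fovea over periphery was 4.02 (SE 0.29, edgeR adjusted p = 2.81e-07). KCNG4 was at 21.9, 19.7, 22.5 and 23.5 CPM at the fovea and at 6.18, 5.10, 7.475 and 5.54 CPM at the periphery. KCNS1 went the other way at a low level, with 0, 0, 0.0825 and 0.0332 CPM at the fovea and 0.326, 0.276, 0.297 and 0.486 CPM at the periphery.

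The auxiliary subunits were divided in the retina, with 4 of 9 higher at the fovea, 3 higher at the periphery and 2 (KCNIP1 and KCNIP3) not called. KCNAB2, a cytoplasmic beta subunit of Kv1 channels, was at 546, 587.5, 603 and 620.0 CPM at the fovea and 134, 79.7, 164 and 138 CPM at the periphery, with perimacula and nasal means of 272.5 and 196 CPM between them. The log2 fold change was 2.27 (SE 0.16, edgeR adjusted p = 3.19e-07). KCNIP4 and KCNIP2 encode calcium-binding subunits of Kv4 channels, and they moved in opposite directions. KCNIP4 was at 165, 148.5, 126 and 129.8 CPM at the fovea and 28.4, 19.96, 28.9 and 22.9 CPM at the periphery (log2 fold change 2.55, SE 0.19, edgeR adjusted p = 3.65e-07). KCNIP2 was at 11.3, 10.4, 14.9 and 14.7 CPM at the fovea and 42.9, 38.7, 48.3 and 44.5 CPM at the periphery (log2 fold change -1.73, SE 0.10, edgeR adjusted p = 9.79e-08). Of the single-span KCNE subunits, KCNE4 rose from 0.811 ± 0.446 CPM at the fovea to 3.499 ± 0.999 at the periphery and KCNE3 from 1.30 ± 0.0703 to 2.16 ± 0.398 (both SD, n = 4). At the peripheral RPE/choroid KCNE4 was at 33.8 CPM and KCNE3 at 10.6 CPM. What part pigment epithelium or choroid had in these retinal values was not tested. KCNAB1, at 16.4 to 17.9 CPM at the fovea and 9.50 to 16.3 at the periphery, was called with a log2 fold change of 0.42 (edgeR adjusted p = 0.025), but not without the second eye (0.30, adjusted p = 0.0874) or without the fourth (0.41, adjusted p = 0.0952).

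Of the slow voltage-gated groups, 5 of 8 KCNH genes and 2 of 5 KCNQ genes were higher at the fovea of the retina, and 1 of each was higher at the periphery. KCNH2, whose channel repolarises the heart and damps firing in neurons, was at 279.6, 272, 199 and 212 CPM at the fovea and at 76.3, 39.4, 91.2 and 83.1 CPM at the periphery (log2 fold change 1.79, SE 0.22, edgeR adjusted p = 1.8e-05). KCNH1, of the ether-a-go-go type, was at 3.06 to 3.995 CPM at the fovea against 0.218 to 0.433 at the periphery (log2 fold change 3.56, SE 0.26, edgeR adjusted p = 3.73e-07). KCNH8, of the Elk type, ran the other way, at 18.6, 20.8, 28.97 and 29.02 CPM at the fovea and 87.8, 106, 80.5 and 80.3 CPM at the periphery (log2 fold change -1.83, SE 0.15, edgeR adjusted p = 8.63e-07), and it was also called against the perimacula (-1.25) and the nasal location (-1.499).

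KCNQ3, a subunit of the M-current that restrains repeated firing, was at 9.96 to 12.5 CPM at the foveal retina and 4.72 to 11.8 CPM at the periphery, where the ranges overlapped. Its log2 fold change of 0.54 (edgeR adjusted p = 0.0107) was not called without the third eye (0.44, adjusted p = 0.0774), without the fourth eye (0.36, adjusted p = 0.0817) or without the animal as covariate (0.45, adjusted p = 0.203). KCNQ5, of the same channel group, was not called, with 4.45 to 6.49 CPM at the fovea and 1.02 to 7.20 at the periphery. There the first animal (6.87 and 7.20 CPM) lay above the second (1.5 and 1.02 CPM).

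Among the inward rectifiers, 5 of 10 tested genes were higher at the fovea of the retina, 2 were higher at the periphery and 3 were not called. KCNJ14, a strong inward rectifier, had the widest difference toward the periphery among called members with a mean of at least 1 CPM. It was at 80.6, 79.5, 65.2 and 66.0 CPM at the fovea, 273, 261, 227 and 148 at the perimacula, 288.5, 287, 230.5 and 245 at the nasal location and 573, 625, 390.3 and 425 at the periphery. The foveal eyes were the lowest and the peripheral eyes the highest, with no overlap with the locations between them, which overlapped each other. Its log2 fold change was -2.72 (SE 0.12, edgeR adjusted p = 3.47e-08). KCNJ2 and KCNJ12, of the same strongly rectifying subfamily, went the other way, KCNJ2 from 40.8 ± 7.82 to 26.9 ± 2.39 CPM and KCNJ12 from 16.3 ± 2.22 to 9.85 ± 1.73 CPM (fovea to periphery, SD, n = 4), with log2 fold changes of 0.64 (SE 0.11) and 0.79 (SE 0.13).

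KCNJ11, the pore of the ATP-sensitive channel, was at 6.31, 9.31, 9.71 and 10.1 CPM at the foveal retina and 1.42, 0.901, 1.93 and 2.48 CPM at the periphery (log2 fold change 2.48, SE 0.27, edgeR adjusted p = 6.09e-06). KCNJ3 and KCNJ6, of the G-protein-gated channel, were also higher at the fovea than at the periphery (log2 fold changes 1.59 and 1.07), whereas KCNJ5, which joins the same channel family, was lower at the fovea, at 7.30 to 9.44 CPM against 12.6 to 20.9 CPM (log2 fold change -0.99, SE 0.13, edgeR adjusted p = 4e-05). KCNJ8, the ATP-sensitive pore of vessels, was at 0.842 to 1.84 CPM and 0.866 to 1.95 CPM and was not called.

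Of 11 tested genes of the calcium-activated and sodium-activated group, 5 were higher at the fovea of the retina, 1 was higher at the periphery and 5 were not called. KCNMA1, the large-conductance calcium-activated pore, was at 164, 145, 142 and 138 CPM at the fovea, 109 to 134 at the perimacula, 102 to 117 at the nasal location and 60.2 to 73.3 at the periphery (log2 fold change 1.199, SE 0.10, edgeR adjusted p = 7.39e-07). KCNN2, a small-conductance channel that follows spikes with a slow hyperpolarisation, was at 16.8, 14.2, 11.6 and 10.6 CPM at the fovea and 3.55, 2.91, 3.37 and 2.004 CPM at the periphery (log2 fold change 2.20, SE 0.23, edgeR adjusted p = 4.99e-06). KCNT1, a sodium-activated channel, was the single gene called in opposite directions against the periphery and the nasal location, and is named for that after its values were seen. It was at 2.44, 2.68, 3.86 and 4.40 CPM at the fovea, 4.66, 3.81, 5.95 and 6.23 at the nasal location and 1.87, 1.34, 3.34 and 2.47 at the periphery.

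Of 8 tested two-pore genes, 3 were higher at the fovea of the retina, 1 (KCNK5) was higher at the periphery and 4 were not called. KCNK5 was at 0.0355 CPM at the foveal retina, 0.311 CPM at the peripheral retina and highest, at 0.966 CPM, at the nasal retina. Its log2 fold change of fovea over nasal location was -4.67 (SE 0.51, edgeR adjusted p = 3.38e-06). RPE/choroid held 7.35 CPM of KCNK5 at the nasal location and 14.1 CPM at the periphery. What part RPE/choroid had in the retinal values was not tested. KCNK3, an acid-sensitive leak channel, kept a level of 25.6 to 37.1 CPM over all 16 retina libraries, with a log2 fold change of fovea over periphery of 0.00 (SE 0.10). KCNK2, a mechanically gated leak channel on the list chosen for known roles, was at 0.100 to 0.645 CPM in the retina and was not called. KCNK10, of the same subfamily, was low as well, at 0.698 to 1.11 CPM at the fovea and 0.0291 to 0.162 CPM at the periphery, and it was called (log2 fold change 3.21, SE 0.36, edgeR adjusted p = 9.03e-06).

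In RPE/choroid fewer members of the set differed with location. Between fovea and periphery 24 of 71 tested genes differed, 12 higher at the fovea and 12 higher at the periphery, with 44.1% of all genes tested, 21.2% and 22.9% by direction, so that the share of the set (33.8%) was below that of all genes. The median log2 fold change was -0.02 over the set and -0.06 over all genes, and the median absolute one 0.88 and 0.42. Without the 4 libraries high in Schwann cell markers 26 genes were called, without the 3 high in rod markers 22, without the fourth eye 17 and without the animal as covariate 14. Between fovea and perimacula edgeR's quasi-likelihood test called 0 of 71 genes, with 0.0447% of all genes. There 10 members had an unadjusted p under 0.05, and DESeq2 called 2. Between fovea and nasal location it called 0 of 71 as well, with 0.361% of all genes, 14 members under an unadjusted p of 0.05 and 6 called by DESeq2.

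Smooth muscle markers moved with this comparison. Over 5 entries for the 4 listed genes, their summed level in RPE/choroid was 4986 to 8190 CPM at the fovea and 421 to 1751 at the periphery. It was 3305 to 4486 at the perimacula and 2593 to 4876 at the nasal location. The fifth entry repeats the symbol TAGLN and was at 0 at the periphery. Melanocyte markers (4 of 4, none at 0) ran from 4951 to 6847 CPM at the fovea and from 8751 to 10700 at the periphery, and endothelial markers (6 of 6, none at 0) from 1507 to 2250 and from 919 to 1196. Their part in the differences between locations was not tested.

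The genes higher at the foveal RPE/choroid included KCNA5 and KCNMB1. KCNA5, a Kv1 channel of arterial smooth muscle and heart, was at 29.2, 34.2, 24.8 and 20.1 CPM at the fovea, 16.9, 11.5, 10.6 and 10.3 at the perimacula, 17.2, 6.94, 19.95 and 8.82 at the nasal location and 1.89, 8.30, 1.67 and 0.219 at the periphery. The foveal eyes were the highest and the peripheral eyes mostly the lowest, and the second eye, the highest of the periphery, overlapped the nasal range. The log2 fold change of fovea over periphery was 3.45 (SE 0.66, edgeR adjusted p = 0.00167). In the same comparison KCNMB1 fell from 41.2, 50.3, 37.4 and 33.7 CPM to 8.77, 17.6, 10.95 and 7.61 CPM (log2 fold change 1.86, SE 0.21, edgeR adjusted p = 6.42e-05).

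KCNMA1, the pore that KCNMB1 joins, was at 26.3, 24.4, 10.9 and 10.8 CPM at the foveal RPE/choroid and 3.69, 8.27, 2.25 and 1.89 CPM at the periphery. The animals differed in level, and all 4 eyes fell, by a log2 fold change of 2.25 (SE 0.28, edgeR adjusted p = 0.000123). At the perimacula KCNMA1 was at 21.3 and 20.7 CPM in the first animal and at 3.75 and 4.06 CPM in the second.

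**Figure D4:**
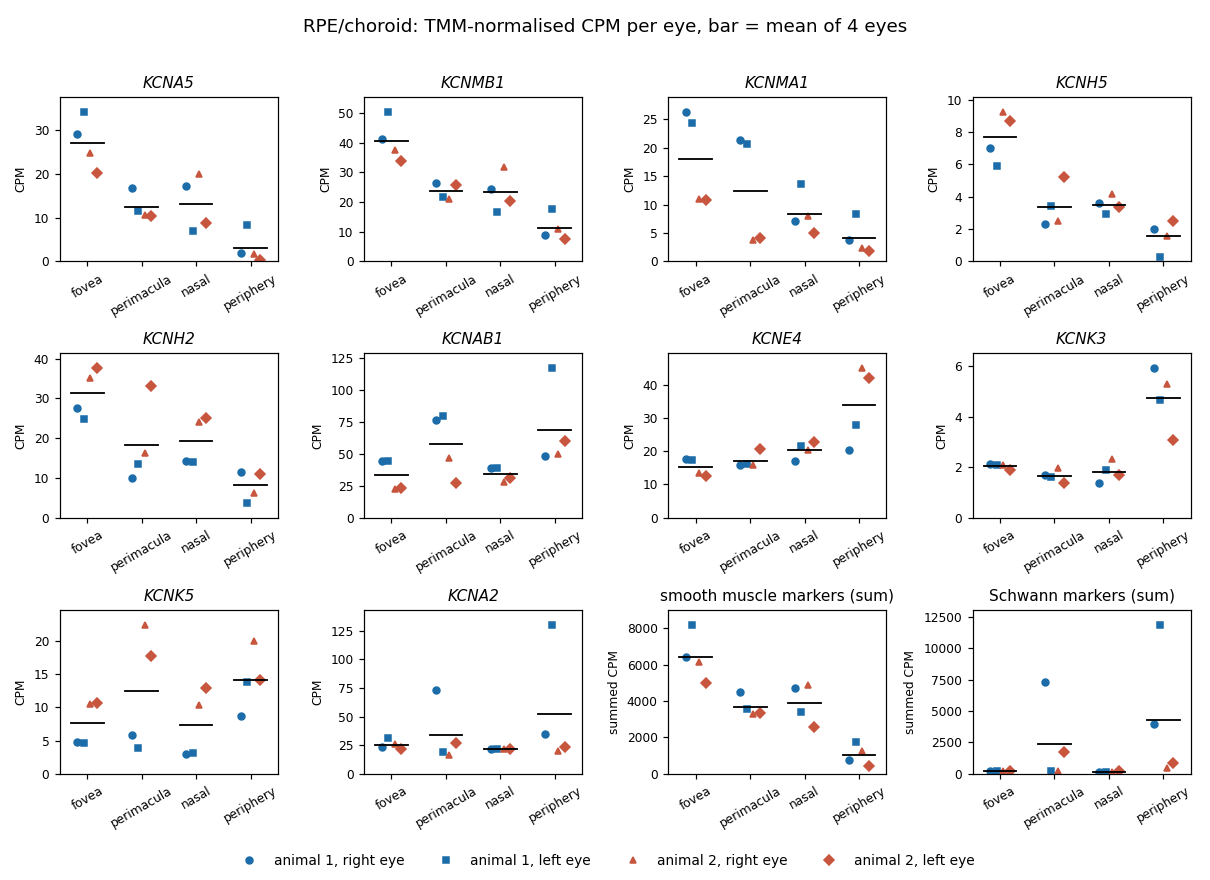
TMM-normalised CPM in RPE/choroid for 10 genes, and the summed CPM of smooth muscle and Schwann cell markers, at 4 locations, with a point per eye, a bar at the mean of 4 eyes and each vertical axis starting at 0. KCNA5, KCNMB1, KCNMA1, KCNH5 and KCNH2 are highest at the fovea, as is the smooth muscle sum, and KCNA2 and KCNAB1 have their highest value in the second eye of the periphery, as does the Schwann cell sum.

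KCNH2 and KCNH5, both of the KCNH group, were higher at the fovea of RPE/choroid too. KCNH2 was at 27.6, 24.8, 35.3 and 37.6 CPM against 11.4, 3.79, 6.19 and 11.1 CPM (log2 fold change 1.91, SE 0.37, edgeR adjusted p = 0.00176). KCNH5, an ether-a-go-go channel, was at 6.999, 5.88, 9.24 and 8.66 CPM against 2.01, 0.241, 1.57 and 2.47 CPM (log2 fold change 2.31, SE 0.50, edgeR adjusted p = 0.00371). KCNQ3 was at 6.89 to 8.80 CPM against 2.94 to 4.87 CPM, without overlap (log2 fold change 0.98, SE 0.20, edgeR adjusted p = 0.0023).

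Some calls toward the foveal RPE/choroid depended on single eyes. KCNG4, a silent subunit, was at 3.47, 2.96, 3.15 and 2.24 CPM at the fovea and 0.596, 0, 0 and 0.232 CPM at the periphery, with a log2 fold change of 3.88 (SE 1.03, edgeR adjusted p = 0.0107). Without the fourth eye the adjusted p of KCNG4 was 0.0561. Without the 3 libraries high in rod markers only the second and the third periphery eyes were left, both at 0, and the fitted fold change is then no bound. KCNJ8 was at 2.70, 4.99, 5.04 and 4.73 CPM at the fovea and 1.31, 1.28, 3.88 and 2.06 CPM at the periphery (log2 fold change 1.105 with SE 0.29, edgeR adjusted p = 0.0112). It was not called without the second eye (0.80, adjusted p = 0.0646), without the fourth (1.11, adjusted p = 0.0651), without the animal as covariate (1.02, adjusted p = 0.051), without the 4 Schwann-high libraries (0.65, adjusted p = 0.223) or without the 3 rod-high ones (0.89, adjusted p = 0.125).

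Toward the periphery of RPE/choroid, 3 auxiliary, 3 two-pore, 2 Kv1 to Kv4, 1 KCNQ, 1 KCNH, 1 calcium-activated and 1 inward rectifier gene were higher. KCNK3 was at 2.13, 2.07, 2.09 and 1.89 CPM at the fovea and 5.92, 4.67, 5.32 and 3.07 CPM at the periphery, without overlap (log2 fold change -1.22, SE 0.22, edgeR adjusted p = 0.0012). KCNE4 was at 17.6, 17.2, 13.3 and 12.6 CPM and 20.4, 27.9, 44.9 and 41.8 CPM, also without overlap (log2 fold change -1.12, SE 0.23, edgeR adjusted p = 0.00241). Both calls stood under each alternative that was run.

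KCNAB1 was at 44.0, 44.4, 22.6 and 23.03 CPM at the foveal RPE/choroid and at 48.1, 117, 49.9 and 59.7 CPM at the periphery, where the second eye, also the highest in Schwann cell markers, stood above the others. Its log2 fold change was -1.09 (SE 0.24, edgeR adjusted p = 0.00428), and the call ended without the animal as covariate (-1.04, adjusted p = 0.0601). KCNK13 was at 1.99, 2.32, 0.616 and 0.931 CPM at the fovea and 2.47, 4.93, 4.20 and 3.47 CPM at the periphery (log2 fold change -1.56, SE 0.35, edgeR adjusted p = 0.00425), and without the fourth eye its adjusted p was 0.0501. KCNIP2 was at 1.03 to 3.33 CPM and 1.25 to 5.72 CPM, ranges that overlapped while each eye rose toward the periphery.

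KCNK5 was at 4.74, 4.70, 10.4 and 10.7 CPM at the foveal RPE/choroid and 8.62, 13.7, 19.98 and 14.1 CPM at the periphery (log2 fold change -1.01, SE 0.28, edgeR adjusted p = 0.0139). Its call ended without the first eye (-1.03, adjusted p = 0.065), without the covariate (-0.89, adjusted p = 0.212) and without the Schwann-high libraries (-0.46, adjusted p = 0.306). KCNJ5 was at 3.37 to 4.77 CPM and 3.95 to 12.7 CPM (log2 fold change -1.18, SE 0.31, edgeR adjusted p = 0.011). It was not called without the first, the third or the fourth eye (-1.04, -1.13 and -1.07, adjusted p from 0.0559 to 0.0745) or without the rod-high libraries (-0.52, adjusted p = 0.257). KCNQ5, at 7.91 to 14.6 CPM and 10.2 to 30.2 CPM, had a log2 fold change of -0.81 (SE 0.20, edgeR adjusted p = 0.00816) and was not called without the second eye (-0.66, adjusted p = 0.0687), the third eye (-0.69, adjusted p = 0.0721) or the covariate (-0.84, adjusted p = 0.0528).

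KCNH8 was at 0.465, 0.401, 2.16 and 0.629 CPM at the foveal RPE/choroid and 5.48, 1.16, 2.48 and 3.65 CPM at the periphery (log2 fold change -1.95, SE 0.71, edgeR adjusted p = 0.0456). Without the 3 libraries high in rod markers, the third fovea eye and the first and the fourth periphery eyes, the value was -1.76 (adjusted p = 0.0797). It was not called without the first eye (-1.26, adjusted p = 0.0699), the second (-1.79, adjusted p = 0.0591), the fourth (-1.88, adjusted p = 0.182), the covariate (-1.81, adjusted p = 0.0658) or the 4 Schwann-high libraries (-1.11, adjusted p = 0.152), nor in a fit of the compared locations alone (-2.02, adjusted p = 0.0511).

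Some members had their high values in RPE/choroid libraries that stood apart. KCNJ14 was at 7.85 CPM in the third fovea eye and at 18.9 and 14.8 CPM in the first and the fourth periphery eyes, against 1.01 to 2.91 CPM in the other 13 libraries. KCNV2 was at 31.4, 26.5 and 19.9 CPM in these 3 libraries and at 2.86 to 9.44 CPM in the others. KCNA2 was at 72.8 CPM in the first perimacula eye and at 130.2 CPM in the second periphery eye, the highest in Schwann cell markers, and at 16.5 to 34.6 CPM elsewhere. KCNJ11 was at 5.84 and 8.27 CPM in these same libraries and at 0.0445 to 1.88 CPM elsewhere. None of these 4 genes was called in RPE/choroid, and the part of rods or Schwann cells in them was not tested.

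The difference between fovea and periphery itself differed between the tissues for 29 of 79 tested genes, 19 with the larger value in retina and 10 with the larger in RPE/choroid, against 43.5% of all genes. For fovea against nasal location it differed for 10 of 79, 1 and 9 by direction, against 23.5% of all genes. Without the first eye the count was 6, without the third 4 and without the fourth 4, and without the 4 Schwann-high libraries it was 17. Shares of all genes by direction were not counted for either of these comparisons. The splits by direction therefore cannot be read as a trait of the set.

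KCNA5 had a difference of -3.00 (SE 0.69, edgeR adjusted p = 0.000874), with a retina level that did not pass the test, at 21.1 to 22.95 CPM at the fovea and 12.03 to 21.99 CPM at the periphery. KCNMB1 had -2.65 (SE 0.41, edgeR adjusted p = 1.05e-05) and KCNH5 -2.34 (SE 0.44, edgeR adjusted p = 0.000117). In the other direction KCNAB2 had 2.43 (SE 0.24, edgeR adjusted p = 9.81e-09), with 128.9 CPM in retina and 128.5 CPM in RPE/choroid at the periphery and 589 and 109 CPM at the fovea. KCNC2 had 3.35 (SE 0.72, edgeR adjusted p = 0.000461) and KCNK3, level across the retina, 1.16 (SE 0.22, edgeR adjusted p = 0.000115). KCNH2, higher at the fovea in both tissues, had -0.14 (SE 0.41) and was not called.

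The 5 widest differences among the called genes were those of KCNS1, KCNK10, KCNJ11, KCNJ3 and KCNA2. KCNS1 had -6.04 (SE 1.43, edgeR adjusted p = 0.00118) at levels of 0.029 CPM in both the foveal retina and the peripheral RPE/choroid, and was not called without the fourth eye (-4.51, adjusted p = 0.0603), while without the third eye the value was -11.23. KCNK10 had 5.44 (SE 1.26, edgeR adjusted p = 0.000966) and rested on 0, 0.369, 0.305 and 0 CPM at the peripheral RPE/choroid. KCNJ11 had 4.98 (SE 1.32, edgeR adjusted p = 0.00333) and was not called without the second eye (2.92, adjusted p = 0.102) or without the Schwann-high libraries (2.02, adjusted p = 0.0693). KCNJ3 had 3.53 (SE 0.90, edgeR adjusted p = 0.00238), with RPE/choroid means of 0.050 CPM at the fovea and 0.221 CPM at the periphery, which were not called. KCNA2 had 3.41 (SE 0.61, edgeR adjusted p = 6.14e-05), and without the Schwann-high libraries 2.24 (adjusted p = 1.11e-06).

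**Figure D5:**
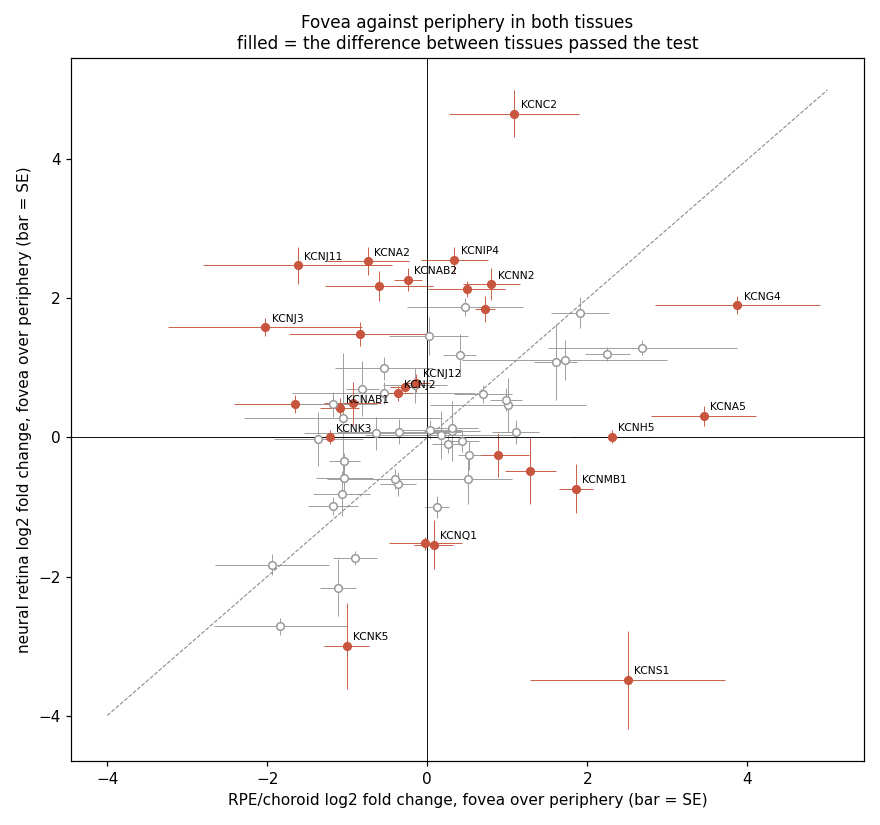
Log2 fold change of fovea over periphery in neural retina (vertical) against that in RPE/choroid (horizontal) for the 68 genes tested in both tissues, with SE bars and the dashed line of equal change. The 28 filled points are genes whose difference between the tissues passed the test. KCNC2, KCNA2 and KCNAB2 lie above the line and KCNA5, KCNMB1, KCNH5 and KCNS1 below it.

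Genes that work with potassium channels but carry other names were read from a fixed list of 18, of which 15 were analysed and 14 tested. In the retina 8 of the 14 were higher at the fovea than at the periphery and 3 were lower, with 31% and 36% of all genes as given above. DPP10 and DPP6, which join Kv4 channels, were at 109.6 and 86.9 CPM at the fovea and 23.8 and 41.5 CPM at the periphery (log2 fold changes 2.25, SE 0.26, and 1.16, SE 0.15). CNTN2 and CNTNAP2, which hold Kv1 channels beside the nodes of axons, had log2 fold changes of 2.23 (SE 0.21) and 0.96 (SE 0.16), and AMIGO1, an auxiliary subunit of Kv channels, 0.52 (SE 0.09). ABCC8, the sulfonylurea receptor that joins the KCNJ11 pore, was at 55.1 and 24.2 CPM (log2 fold change 1.24, SE 0.21). Of the potassium-chloride and sodium-potassium-chloride cotransporters, SLC12A5 and SLC12A7 were higher at the fovea and SLC12A2 and SLC12A4 were higher at the periphery. In RPE/choroid 3 of the 14 were higher at the fovea (ABCC9, SLC12A4 and SLC12A7) and 3 at the periphery (CNTNAP2 and SLC12A3 among them), with 21.2% and 22.9% of all genes as given above. ABCC9, the receptor that joins the vascular pore KCNJ8, was at 7.85 and 3.19 CPM there (log2 fold change 1.30, SE 0.45, edgeR adjusted p = 0.0354).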

How the data were processed

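Per the labels and the study's methods, poly-A selected reads of each lane were quantified against Mmul_8.0.1 with Salmon 0.13 and imported with tximport, and the authors deposited length-scaled values that are estimated counts per gene, read as such because their totals differ between lanes. The 136 lanes were summed to 32 libraries and rounded, and 10 entries that repeat a gene identifier were dropped. Of the 84 identifiers, 64 had the same symbol in the table of Ensembl gene names used here and 20 were absent from it.

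Counts were tested with edgeR 4.0.16 (quasi-likelihood, TMM, filterByExpr at a minimum count of 10, R 4.3.3, limma 3.58.1) with the monkey as covariate, adjusted p under 0.05 by Benjamini-Hochberg over all genes. Fovea, perimacula and periphery of a tissue were fitted together, nasal comparisons in a fit that also held nasal libraries, and tissue and interaction contrasts over all 32 libraries. SE were taken from the fold change and its F value. The test was tried on simulated data with 200 changed genes. Levels used Python 3.11.15 and pandas 2.3.3. Alternatives were DESeq2 1.42.0, RLE normalisation, no filter, at least 10 counts in every library, no covariate, the eye as block, compared groups alone, nasal libraries included, and each eye left out. Leaving out the Schwann-high (sum of at least 1000 CPM) or rod-high (at least 500 CPM) RPE/choroid libraries was added after the data were seen.

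Same-numbered libraries come from the same eye, so the numbers pair the samples. The mean correlation of deviations from the location mean was 0.561 in retina and 0.387 in RPE/choroid for the same eye, 0.555 and 0.403 for the fellow eye. With the mean of each animal also removed, it was 0.015 and -0.023 for the same eye. The correlations thus showed the animal, and no pairing by eye beyond it. No pair of libraries within a group of the same tissue and location was a duplicate. Pairs across groups were not checked.

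The members and lists were chosen with earlier results of these data known. Values are given for a fixed list of 25 genes with known roles in retina or pigment epithelium (2 were not analysed here, and results of some other genes are not reported here), for the 5 called genes with the largest fold change each way between fovea and periphery in each tissue (3 each way for the other retina comparisons), with a mean of at least 1 CPM and the same sign in 4 of 4 eyes, for the 5 each way with the largest tissue difference called at 4 of 4 locations, for the 5 largest interactions, and for counts of 5 or fewer.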

Additional observations from a re-analysis of the deposited data

Results flagged for a closer look

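In 14 of 250 groups of 4 eyes, 1 eye lay far from the other 3, where chance gives about 1 in 20 groups, or 12.5. In neural retina these were KCNA2 in the fourth perimacula eye (465.1 CPM), KCNE4 in the second perimacula eye (2.10 CPM), KCNJ3 in the fourth perimacula eye (24.4 CPM), KCNJ12 in the first fovea eye (13 CPM), KCNJ2 in the fourth periphery eye (23.3 CPM) and KCNJ6 in the third periphery eye (1.36 CPM). In RPE/choroid they were KCNA2, KCNAB1 and KCNAB2 in the second periphery eye (130.2, 116.7 and 78.3 CPM), KCNE4 in the fourth perimacula eye (20.6 CPM), KCNJ11 in the first perimacula eye (5.84 CPM), KCNJ14 and KCNV2 in the third fovea eye (7.85 and 31.4 CPM) and KCNJ8 in the first fovea eye (2.70 CPM). The second periphery eye and the first perimacula eye are among the RPE/choroid libraries high in Schwann cell markers. They were also the lowest of their locations in summed pigment epithelium markers, at 2916 and 4120 CPM. The third fovea eye is among the libraries high in rod markers. What part these cell types had in the values above was not tested.

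The genes listed here are those that the naming rule picked, and not all the members called, of which there were 29 for fovea over periphery and 10 for fovea over nasal location. The log2 difference of fovea over periphery was larger in retina than in RPE/choroid, by edgeR's test of the difference itself, for KCNK10 (5.44), KCNJ11 (4.98), KCNJ3 (3.53), KCNA2 (3.41), KCNC2 (3.35), KCNAB2 (2.43), KCNIP4 (2.25), KCNAB1 (1.40), KCNN2 (1.32), KCNK3 (1.16), KCNJ2 (0.96) and KCNJ12 (0.87). It was smaller in retina for KCNS1 (-6.04), KCNA5 (-3.00), KCNMB1 (-2.65), KCNH5 (-2.34), KCNK5 (-2.09), KCNG4 (-1.95) and KCNQ1 (-1.68). For fovea over nasal location it was larger in retina for KCNAB2 (1.64) and smaller for KCNK5 (-4.95), KCNS1 (-3.79), KCNJ14 (-2.55), KCNG4 (-2.38), KCNH5 (-1.64), KCNIP2 (-1.43) and KCNMB1 (-1.16).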

How the results depend on the processing

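Of 77 gene results followed, 65 kept their call and direction under every alternative run, 12 lost the call under at least 1, and 0 reversed. Of 12 counts of called members, 10 moved by over 1.5 times under some alternative. A demand for at least 10 counts in every library left fewer genes to test. The tissue counts were then 40, 40, 37 and 33 (fovea, perimacula, nasal, periphery). The interaction counts were 17 and 5 (periphery, nasal), and 1 gene was called between fovea and nasal location of RPE/choroid. DESeq2 called 2 genes between fovea and perimacula and 6 between fovea and nasal location of RPE/choroid, and a fit of the compared groups alone called 6 and 4. That fit called 19 in the nasal interaction. Without the animal as covariate 14 genes were called between fovea and periphery of RPE/choroid. Without the Schwann-high libraries 1 gene was called between its fovea and perimacula and 17 in the nasal interaction. Leaving out each eye gave 17 to 29 calls for fovea against perimacula of the retina and 4 to 9 for the nasal interaction.

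With the eye as replicate block, the paired fit called 50, 31 and 40 genes in retina (periphery, perimacula, nasal), 22, 0 and 0 in RPE/choroid, 68, 65, 65 and 59 between the tissues and 28 and 9 in the interactions. Genes with few counts set the limit of depth, since 5 of the 84 could be tested nowhere.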

Other observations

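KCNIP3, which encodes a calcium-binding partner of Kv4 channels, separated the animals in the neural retina and not the locations. It is described here after its values were seen. Its 8 libraries of the first animal held 6.36 to 9.22 CPM (mean 7.53) and the 8 of the second 32.8 to 45.9 CPM (mean 39.2), without overlap. In RPE/choroid KCNIP4 was at 3.39 to 7.78 CPM in the first animal and 0.492 to 2.16 in the second, KCNIP1 at 3.82 to 9.19 and 9.40 to 23.7 CPM, KCNH3 at 5.98 to 11.1 and 12.8 to 30.1 CPM, and the leak channel KCNK2 at 0.353 to 2.97 and 0 to 0.203 CPM, each without overlap. With 2 animals these differences were not tested.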
